A study of Danio rerio with 4 samples.

Results

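The transcription factor genes *foxc1a*, *foxc1b*, *tbx18*, *zic1* and *zic2a*, which are linked to the meninges, were followed across the cells of the zebrafish calvaria, the flat bones of the skull roof. They are 5 of the 39988 genes in the count tables and were picked out by symbol, as a list drawn up with earlier results of these data known. *foxc1a* and *foxc1b* are the paralogs of the forkhead factor Foxc1, which in mouse is needed for the meninges and for the calvarial bones above them. *tbx18* is a T-box factor that in mouse marks pericytes and smooth muscle cells, the mural cells of vessels, as well as fibroblasts around the brain. *zic1* and *zic2a* are zinc finger factors of the dorsal neural tube and its derivatives, with roles in cerebellar neurons, and in mouse Zic1 is also present in mesenchyme of the head. A factor of this kind can therefore stand for several tissues in a dissection that lies next to the brain, and its level was read in marker-gated classes of cells.

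Cells were dissected from pooled fish of the tubingen strain and captured in 4 droplet libraries, each of which is 1 replicate, so that the tests below measure the spread between pools. Juvenile replicate 1 came from 20 *ecad:YFP* fish of 9–11 mm depleted of YFP+ cells, and juvenile replicate 2 from 20 *sp7:GFP* fish of 9–11 mm depleted of GFP+ cells. Adult replicate 1 came from 10 *ecad:YFP* fish of 22–25 mm depleted of YFP+ cells, and adult replicate 2 from 10 fish of 22–25 mm without a reporter, sorted for live cells alone. The *ecad* reporter labels epithelium and the *sp7* reporter labels osteoblasts, and because only the *ecad:YFP* gate occurs at both stages, gate and stage cannot be told apart between the other libraries. Below, 4 values in a row follow the order juvenile replicate 1, juvenile replicate 2, adult replicate 1, adult replicate 2.

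After filtering, 8313, 7932, 2072 and 2994 cells were kept, with a median of 1878, 2064, 2815 and 1929 UMIs per cell, where a UMI is a tag of 1 captured RNA molecule. Between 14 and 101 cell barcodes were shared by any 2 libraries. A cell entered a class with UMIs of at least 3 of its markers if no other class had more than 0.5 times as many, and this left 32.8% to 59.3% of the cells of a library without a class. The mesenchyme gate (*prrx1a*, *prrx1b*, *pdgfra*, *dcn*, *lum*, *col1a2*, *col5a1*) held 523, 413, 656 and 896 cells, and all 7 of its markers were detected in each library. Levels are given as the UMIs of a gene per 1000000 UMIs of the class (CPM), on the linear scale, and are compared between classes and libraries but not between genes. Doublets were not removed. Markers of other classes also had UMIs in the mesenchyme, and whether these came from other cells was not tested. The summed level of 10 neuronal markers there was 337, 313, 45.6 and 54.4 CPM, that of 9 endothelial markers 42.8 to 68.6 CPM with 2 of them at 0 in every library, that of 9 mural markers 133 to 1004 CPM, and that of 14 immune markers 43.7 to 90.1 CPM. The sum of 7 epithelial markers was 2492 to 4603 CPM, or 266 to 1227 CPM without *krt8*, and that of 8 radial glia markers was 584 to 1624 CPM, or 5.12 to 134 CPM without *glula*, and the part of these transcripts in the results was not tested.

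In mesenchyme, all 5 factors were detected in every library. *foxc1b* was found in 13.0%, 9.20%, 11.0% and 9.26% of the mesenchyme cells, at 55.0, 33.8, 39.7 and 42.2 CPM. *foxc1a* was found in 3.44%, 5.57%, 0.762% and 2.12% of them, at 11.9, 20.7, 2.09 and 7.88 CPM. The level of *foxc1b* thus differed little between the libraries. That of *foxc1a* was higher in both juvenile libraries than in either adult one, from 21, 30, 5 and 20 UMIs. *tbx18* was the sparsest of the 5, with 15, 15, 2 and 5 UMIs in 8, 12, 2 and 5 cells, or 8.50, 10.4, 0.836 and 1.97 CPM, and its juvenile values lay above its adult ones. The share of all genes that show this order, as *foxc1a* and *tbx18* do, was not counted. *zic1* was found in 7.65%, 5.57%, 6.55% and 1.45% of the mesenchyme cells, at 30.0, 24.9, 21.7 and 5.52 CPM. *zic2a* was found in 8.22%, 7.75%, 7.47% and 1.45% of them, at 27.8, 25.6, 24.7 and 5.52 CPM. For both *zic* genes adult replicate 2 stood below the other libraries, and the remaining 3 were close together.

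**Figure D1:**
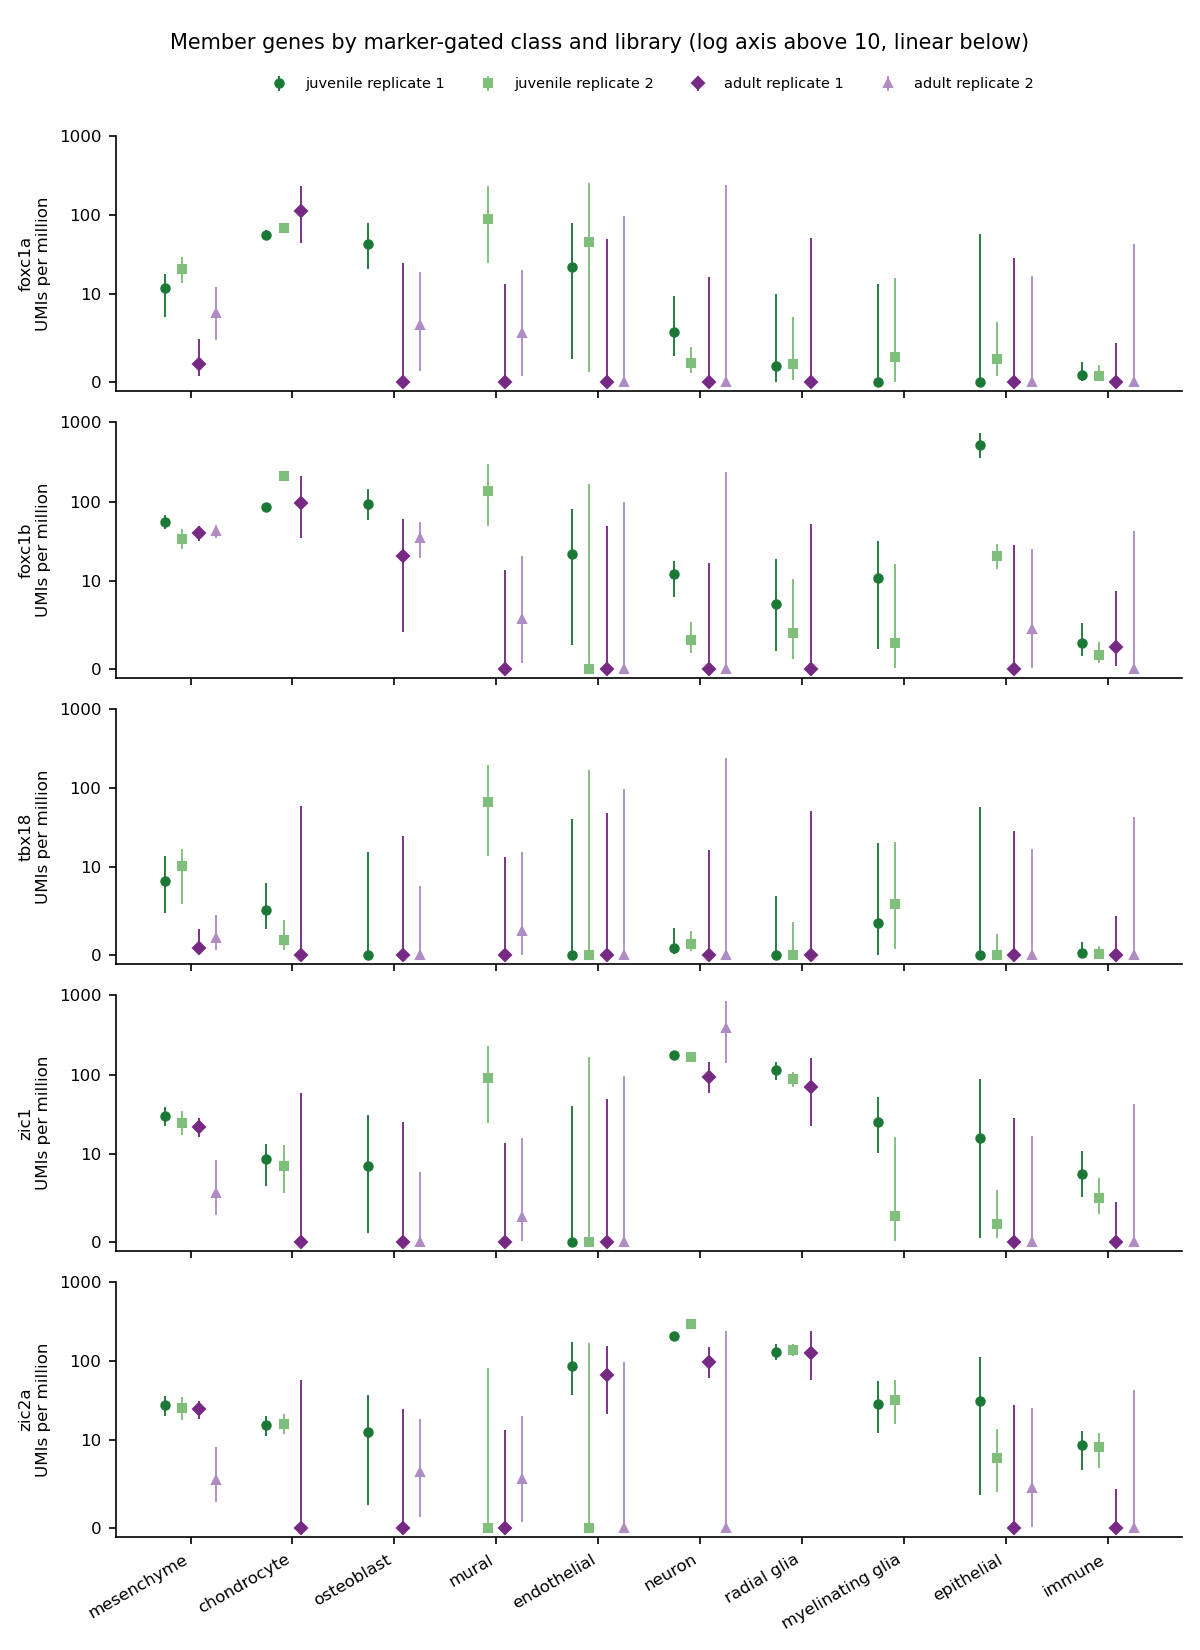
Level of each gene in CPM, by marker-gated class (x axis) and library (colour and symbol), with exact Poisson 95% intervals for counting error, on an axis that is logarithmic above 10 and linear below it. Classes with fewer than 10 cells in a library are left out. In the juvenile libraries both *fox* genes lay higher in chondrocytes than in mesenchyme, and *foxc1b* reached 520 CPM in 39 epithelial cells of juvenile replicate 1. The *zic* genes were higher in juvenile neurons and radial glia than in juvenile mesenchyme.

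Immune cells, which should lack these factors, gave the level of free RNA. Among 1128, 1128, 277 and 30 immune cells, *foxc1b* was found in 0.798%, 0.709%, 0.722% and 0%, *foxc1a* in 0.266%, 0.355%, 0% and 0%, and *tbx18* in 0.0887%, 0.0887%, 0% and 0%. The median depth was 2774, 3886, 1839 and 2186 UMIs in immune cells and 3189, 2919, 3500 and 2543 UMIs in mesenchyme cells. In the 2 adult libraries a count of 0 allows a share of up to 1.08% of 277 cells and 10.0% of 30 cells. *zic1* was found in 2.39% and 2.13% and *zic2a* in 3.1% and 4.26% of the juvenile immune cells, and neither in an adult immune cell. The shares of all 5 genes were therefore higher in juvenile mesenchyme than in juvenile immune cells. In adult replicate 1 the shares of *foxc1a* (0.762%) and *tbx18* (0.305%) in mesenchyme lay below the 1.08% that the immune cells allow. Neither could therefore be told from background there. In adult replicate 2 the 30 immune cells were too few to set a background, since the shares of all 5 genes in mesenchyme lay below 10.0%.

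With the library as a block in the edgeR quasi-likelihood test, and p-values adjusted by the method of Benjamini and Hochberg, *foxc1b* was higher in mesenchyme than in immune cells by a log2 fold change of 4.22 (SE 0.55, adjusted p = 2.14e-07), *zic1* by 2.49 (SE 0.56, adjusted p = 0.000446) and *zic2a* by 1.98 (SE 0.56, adjusted p = 0.00480). These are 3 of the 3 members tested, in a comparison in which 39.4% of all 8510 genes tested passed, and *foxc1a* and *tbx18* were removed by the filter on low counts. Without that filter both passed, at 4.15 and 4.90. With *col1a2* and *col5a1* left out of the gate, or with cells thinned to 1000 UMIs, *foxc1b* was the 1 member tested, and it passed. Without the library block *zic2a* was lost (adjusted p = 0.0911).

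Pooled over the 4 libraries, the largest part of the *fox* transcripts lay outside mesenchyme. Chondrocytes, gated on *col2a1a*, aggrecan and other cartilage genes, held 47.2% of all *foxc1a* UMIs and 41.1% of all *foxc1b* UMIs, against 10.5% of all UMIs counted. *foxc1a* was at 56.7 and 68.0 CPM in the 421 and 470 juvenile chondrocytes, in 32.3% and 28.3% of them. *foxc1b* was at 85.5 and 207 CPM there, in 37.1% and 51.5% of the cells. The 11 chondrocytes of adult replicate 1 had 7 UMIs of *foxc1a* and 6 of *foxc1b*, and adult replicate 2 held a single chondrocyte. Mesenchyme of adult replicates 1 and 2 had 5 and 20 UMIs of *foxc1a* and 95 and 107 of *foxc1b*. The pooled chondrocyte shares therefore describe mainly the juvenile libraries. In both juvenile libraries the *fox* levels of chondrocytes were above those of mesenchyme, while *tbx18* (5.16 and 1.73 CPM) and both *zic* genes (*zic1* 9.40 and 8.67 CPM, *zic2a* 15.5 and 16.3 CPM) were below them. These differences between chondrocytes and mesenchyme were not tested.

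Osteoblasts and epithelium added 2 further places for *foxc1b*. In 38, 37 and 97 osteoblasts of juvenile replicate 1, adult replicate 1 and adult replicate 2 it was at 94.4, 20.4 and 34.4 CPM, and *tbx18* was at 0 in all 3. In the epithelial gate *foxc1b* reached 520 CPM in juvenile replicate 1, from 33 UMIs in 17 of 39 cells, against 20.8 CPM in the 297 cells of juvenile replicate 2, 0 in the 36 cells of adult replicate 1 and 4.56 CPM in the 51 cells of adult replicate 2. Juvenile replicate 1 had been depleted of *ecad:YFP*+ cells, and *foxc1a* and *tbx18* had no UMI in these 39 cells. The high value is from a single library.

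Most UMIs of the *zic* genes, pooled over the 4 libraries, lay in neural cells. Neurons, radial glia and myelinating glia together held 65.0% of all *zic1* UMIs and 67.6% of all *zic2a* UMIs, against 16.0% of all UMIs. These shares describe mainly the juvenile libraries. In adult replicates 1 and 2, 19 and 2 neural cells had a *zic* UMI, against 87 and 25 mesenchyme cells. In 1508, 2372, 55 and 10 neurons *zic1* was at 177, 166, 94.6 and 388 CPM, the last from 6 UMIs. *zic2a* was at 210, 298, 99.1 and 0 CPM in the same neurons. Radial glia, the stem-like glial cells of the brain, had *zic1* at 113, 88.0 and 69.9 CPM and *zic2a* at 132, 138 and 126 CPM in 262, 344 and 25 cells of the first 3 libraries. Myelinating glia were lower, with *zic2a* at 29.0 and 32.1 CPM and *zic1* at 25.4 and 2.91 CPM in the 2 juvenile libraries. The *fox* genes were at 2.15 to 12.3 CPM in juvenile neurons and had no UMI in the 87 and 12 adult neural cells, which allows a share of up to 3.45% and 25.0%.

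Against neural cells, mesenchyme was higher in *foxc1b* by a log2 fold change of 4.00 (SE 0.55, adjusted p = 1.08e-11, same edgeR test). It was lower in *zic1* (log2 fold change -1.69, SE 0.46, adjusted p = 0.000987) and in *zic2a* (log2 fold change -1.62, SE 0.50, adjusted p = 0.00432). All 3 members tested passed, beside 38% of 9994 genes. The call for *zic2a* was lost without juvenile replicate 1 (adjusted p = 0.138), juvenile replicate 2 (0.218) or adult replicate 1 (0.0510). Of 13 alternatives in all, 9 kept this call and 4 lost it. With library totals in place of TMM normalization the median of all genes moved by -1.09, and the share of called genes that were higher in mesenchyme changed from 58.6% to 21.2%, while the *zic2a* difference was then -2.71.

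Vascular cells were few and gave less firm values. Mural cells, gated on smooth muscle and pericyte genes, numbered 9, 18, 64 and 113. *foxc1a* had 3, 4, 0 and 2 UMIs in them, *foxc1b* had 2, 6, 0 and 2, and *tbx18* had 2, 3, 0 and 1. As levels these are 164, 90.2, 0 and 5.64 CPM for *foxc1a*, 109, 135, 0 and 5.64 CPM for *foxc1b*, and 109, 67.6, 0 and 2.82 CPM for *tbx18*. Each gene was higher in both juvenile libraries than in both adult ones, from at most 6 UMIs in a library. This order cannot tell a stage difference from the spread between pools, and the share of all genes that show it was not counted. A count of 3 UMIs would equal 164 CPM in the 9 mural cells of juvenile replicate 1 and 11.1 CPM in the 64 cells of adult replicate 1. *zic1* was found in the mural cells of juvenile replicate 2 (4 UMIs) and adult replicate 2 (1 UMI), and *zic2a* in those of adult replicate 2 alone (2 UMIs).

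Endothelial cells numbered 35, 12, 26 and 20, and *tbx18* and *zic1* had no UMI in any of them, which allows levels of up to 33.0, 137, 40.0 and 79.3 CPM. *zic2a* had 8, 0, 5 and 0 UMIs there, or 88.0 and 66.6 CPM in the 2 *ecad:YFP*-depleted libraries and 0 in the other 2. *foxc1a* had 2 and 1 UMIs in juvenile replicates 1 and 2, and *foxc1b* had 2 UMIs in juvenile replicate 1. *foxc1b* was higher in mesenchyme than in endothelial cells by a log2 fold change of 3.14 (SE 0.96, adjusted p = 0.00685, edgeR quasi-likelihood test), and *zic2a* did not pass (log2 fold change -0.51, SE 0.66, adjusted p = 0.685), in a comparison in which 23.2% of 4736 genes passed. That call did not stand at adjusted p = 0.0714 without adult replicate 1, at 0.0672 with library totals and at 0.441 after thinning. TMM and library totals differed by 0.74 in the median of all genes, and 71.8% against 43.5% of the called genes were higher in mesenchyme.

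Mesenchyme and mural cells could be compared in 3 libraries, without the 9 cells of juvenile replicate 1. Neither *foxc1b* (log2 fold change 1.60, SE 0.91, adjusted p = 0.474) nor *zic1* (0.84, SE 0.91, adjusted p = 0.794) passed, beside 4.35% of 5289 genes, and neither had an unadjusted p under 0.05 or passed with DESeq2. Library totals moved the median of all genes by -0.22. Of the called genes 67.4% were higher in mesenchyme, or 54.6% with library totals. Without juvenile replicate 2 the *foxc1b* difference was 3.81 and passed (adjusted p = 0.0414), and without adult replicate 1 that of *zic1* was -0.38.

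Whether the factors change between juvenile and adult calvaria was asked within each class. In mesenchyme 0 of 5 members passed the edgeR quasi-likelihood test, in which 0.323% of 8971 genes passed, and 1 of the 5, *tbx18*, had an unadjusted p under 0.05. DESeq2 also called 0 of 5, with adjusted p = 0.414 for *tbx18*. *tbx18* was at 9.43 ± 1.31 CPM in juvenile and 1.40 ± 0.802 CPM in adult mesenchyme (mean ± SD, n = 2 libraries each), a log2 difference, adult minus juvenile, of -2.42 (SE 0.74, unadjusted p = 0.0105, adjusted p = 0.244). The levels of the 2 stages did not overlap, but they rest on 15, 15, 2 and 5 UMIs. *foxc1a* was at 16.3 ± 6.23 and 4.99 ± 4.09 CPM, a log2 difference of -1.35 (SE 0.76, adjusted p = 0.576). Again the stages did not overlap, on 21, 30, 5 and 20 UMIs. With 2 libraries per stage, a lack of overlap cannot by itself tell a stage difference from the spread between pools. How many of the 8971 genes tested also lacked overlap was not counted. For both *tbx18* and *foxc1a* the level in adult replicate 1 could not be told from the background of its immune cells.

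*foxc1b* was at 44.4 ± 14.9 CPM in juvenile and 40.9 ± 1.72 CPM in adult mesenchyme, with a log2 difference of 0.12 (SE 0.49, adjusted p = 0.969) and overlapping libraries. *zic1* was at 27.5 ± 3.66 and 13.6 ± 11.5 CPM (log2 difference -0.89, SE 0.60, adjusted p = 0.661), and *zic2a* at 26.7 ± 1.57 and 15.1 ± 13.5 CPM (log2 difference -0.71, SE 0.62, adjusted p = 0.765). Both adult means of the *zic* genes combine a value near the juvenile ones, in adult replicate 1, with the low value of adult replicate 2. Between the 2 *ecad:YFP*-depleted libraries alone the differences were -2.49 for *foxc1a*, -3.22 for *tbx18* and -0.52 for *foxc1b*, without a test. The share of neuronal transcripts moved with stage as well, since 66.4% and 70.4% of the juvenile mesenchyme cells without any member had a UMI of a neuronal marker, against 13.4% and 13.3% of the adult ones, and its part in the *zic* levels was not tested. Counts were simulated with the depth of these sums, the mean levels of all genes tested and a fixed spread not estimated from these libraries. The test then recovered 12% of genes changed 2-fold and 85% of genes changed 4-fold. These shares were not worked out for the members or for the spread of these libraries.

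In neural cells 0 of the 2 members tested passed between stages, beside 2.89% of 12155 genes, and 0 had an unadjusted p under 0.05 or passed with DESeq2. The log2 differences were -0.29 for *zic1* (SE 0.82, adjusted p = 0.942) and -1.40 for *zic2a* (SE 0.85, adjusted p = 0.478), with only 87 and 12 adult neural cells behind them. No member reached the filter on low counts in vascular cells.

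The lists of genes around the 5 factors held no call between stages in mesenchyme. None of the 12 other *zic*, *fox* and *tbx* genes tested, of 21 listed, and none of the 14 meningeal genes tested, of 18 listed, passed in either direction in edgeR, while 1 and 4 of them had an unadjusted p under 0.05 and DESeq2 called 0 and 2. The median log2 difference was -0.31 for the first list and 0.19 for the second, against 0.01 over all genes tested, a median that library totals moved by -0.22.

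Co-detection asks whether factors of different families were found in the same cells. Among 2488 mesenchyme cells, 299 had a UMI of a *fox* gene, 241 of a *zic* gene and 27 of *tbx18*. Cells with both a *fox* and a *zic* UMI numbered 69, where 30.8 would have been found had the genes fallen on the cells of each library independently, a ratio of 2.24. By library the observed and expected numbers were 23 and 12.1, 12 and 6.42, 20 and 9.68, and 14 and 2.59. All 4 libraries lay above the expected number, and adult replicate 2 was furthest above it. *fox* and *tbx18* were found together in 14 cells against 3.49 expected (ratio 4.01, above in 4 of 4 libraries), and *zic* and *tbx18* in 9 cells against 3.08 (ratio 2.92, above in 3 of 4).

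**Figure D2:**
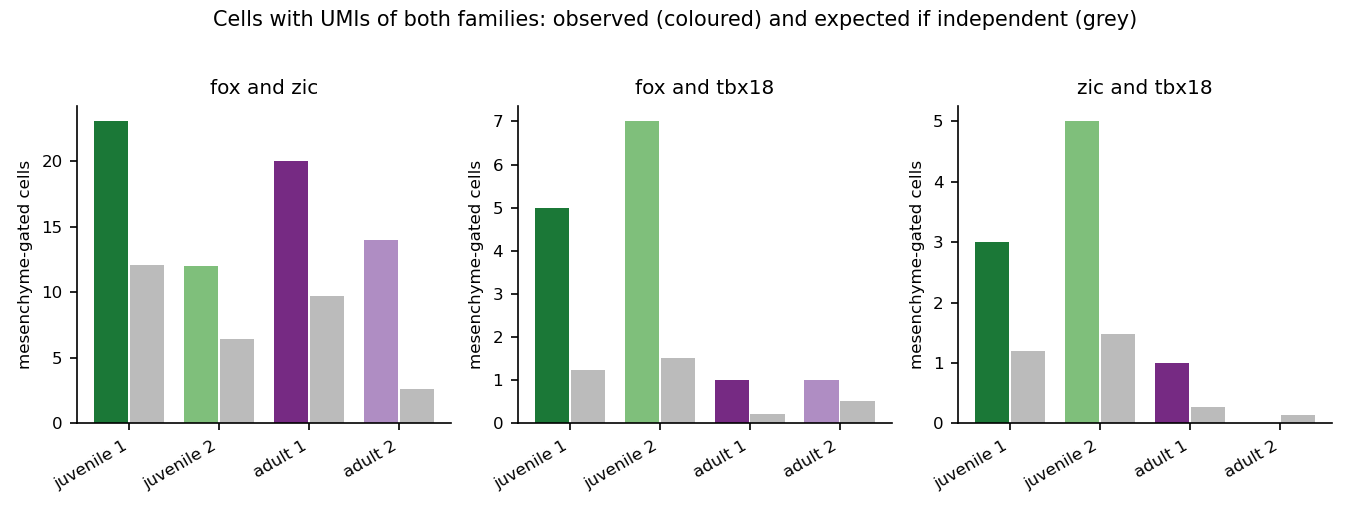
Mesenchyme cells with UMIs of both families (coloured bars, 1 per library) beside the number expected if the families fell independently on the cells of that library (grey bars), for *fox* and *zic*, *fox* and *tbx18*, and *zic* and *tbx18*. The y axis is in cells. *fox* and *zic* stood above the expected number in all 4 libraries, with 69 cells against 30.8 in sum.

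Deeper cells have more UMIs of any gene, which raises such ratios. With each mesenchyme cell thinned to 1000 UMIs, *fox* and *zic* met in 10 cells against 5.26 expected (ratio 1.90, above in 3 of 4 libraries). At this depth 0 cells of adult replicate 1 and 1 cell of adult replicate 2 carried more than 1 family. The adult libraries were thus too sparse to read after thinning. In mesenchyme cells with no neuronal UMI the numbers were 49 and 19.9, a ratio of 2.47, and with *col1a2* and *col5a1* left out of the gate the ratio was 2.23. No test was made, as the cells of a library are not replicates.

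Within families, *foxc1a* and *foxc1b* met in 27 mesenchyme cells against 6.77 expected (ratio 3.99, above in 4 of 4 libraries), and *zic1* and *zic2a* in 15 against 8.47 (ratio 1.77, above in 4 of 4). After thinning these numbers were 3 against 1.22 and 1 against 1.13, too few to read. Over all classes, 273 cells carried both *fox* paralogs and 59.7% of them were chondrocytes, while 454 cells carried both *zic* genes and 73.3% of them were neural. Of the 289 cells with a *fox* and a *zic* UMI, 23.9% were mesenchyme, 28.0% chondrocytes, 8.30% neural and 35.6% without a class. In chondrocytes *fox* and *zic* met in 81 cells against 70.2 expected (ratio 1.15) and *fox* and *tbx18* in 3 against 7.63. A *fox* UMI is far more frequent in chondrocytes than in mesenchyme, which limits how high the ratio can be there, and the 2 classes were not compared.

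The mesenchyme cells that carried several factors also differed in *crhbp*, which encodes the binding protein of corticotropin-releasing hormone and stands in the list of meningeal genes. *crhbp* was found in 20.0%, 25.0%, 31.8% and 60.0% of the 25, 16, 22 and 15 mesenchyme cells with more than 1 family. In the 384, 318, 516 and 788 mesenchyme cells with none of the 5 factors it was found in 0.521%, 1.26%, 6.78% and 8.63%. The median depth of the first group was 3050, 2830, 3902 and 3219 UMIs and that of the second 3202, 2914, 3363 and 2438 UMIs. In each library the share was several times higher in the cells with more than 1 family, and in 2 libraries these cells were not the deeper ones.

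Mesenchyme cells with a *fox* UMI were next compared with those without one, in sums of 81, 52, 73 and 93 positive cells against 442, 361, 583 and 803 negative cells. Outside the 2 *fox* genes that define the groups, 139 genes passed, 74 higher and 65 lower in *fox*-positive cells, and 2.90% of all 4870 genes tested passed with those 2 included. *crhbp* led the increases. It was at 366, 280, 820.5 and 1649 CPM in *fox*-positive and 6.09, 6.93, 151 and 131 CPM in *fox*-negative mesenchyme, a log2 fold change of 3.83 (SE 0.40, adjusted p = 6.06e-05, edgeR quasi-likelihood test with the library as a block). Its UMIs came from a minority of the positive cells, 7 of 81, 7 of 52, 23 of 73 and 30 of 93, and in juvenile replicate 1 these 7 cells held 105 UMIs. *hyal4*, a hyaluronidase gene of the osteogenic list, was at 167, 300.4, 22.3 and 65.1 CPM against 17.6, 29.3, 10.1 and 14.2 CPM (log2 fold change 2.55, SE 0.31, adjusted p = 0.000251). Both genes were higher in the positive cells of every library.

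Among the other leading increases were *coch* (log2 fold change 2.97, SE 0.72, adjusted p = 0.0354), which encodes the matrix protein cochlin, *matn4* (2.09, SE 0.38, adjusted p = 0.00718), which encodes a matrilin, and *gsdf* (1.93, SE 0.26, adjusted p = 0.000826), which encodes a secreted factor of the TGF-beta family. The leading decreases were *f13a1b* (-3.71, SE 0.38), a coagulation factor XIII subunit gene, *gyg1b* (-2.89, SE 0.40), a glycogenin gene, *zgc:56585* (-2.80, SE 0.31), *june* (-2.47, SE 0.54), a gene of the Jun family, and *si:dkeyp-66d1.7* (-2.42, SE 0.49). *gyg1b* was at 167, 53.4, 28.6 and 264 CPM in *fox*-positive and 903, 1971, 212 and 775 CPM in *fox*-negative mesenchyme. The leading genes were taken among those that moved the same way in every library, and for *coch* the values of adult replicate 1, 79.5 and 76.5 CPM, were nearly equal.

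Of the members outside the *fox* family, *zic2a* passed. It was at 69.7, 46.7, 41.3 and 24.0 CPM in *fox*-positive and 19.6, 23.1, 22.1 and 3.12 CPM in *fox*-negative mesenchyme (log2 fold change 1.39, SE 0.35, adjusted p = 0.0426), and *zic1* was at 66.2, 53.4, 28.6 and 24.0 CPM against 23.0, 21.6, 20.7 and 3.12 CPM (1.26, SE 0.36, adjusted p = 0.0827). Both were higher in the *fox*-positive cells of every library. The call for *zic2a* was lost without juvenile replicate 1 (adjusted p = 0.205), adult replicate 1 (0.0794) or adult replicate 2 (0.149). Of 12 alternatives in all, 5 kept this call and 7 lost it.

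The 4 genes of the dermal list encode enzymes of phenylalanine and tyrosine breakdown, and 4 of 4 fell in *fox*-positive mesenchyme in edgeR and 3 of 4 in DESeq2. The median log2 fold change was -1.54, against -0.04 for all genes, of which 1.33% fell. *pah*, the phenylalanine hydroxylase gene, was at 48.8, 0, 226 and 20.6 CPM in *fox*-positive and 181, 221, 516 and 156 CPM in *fox*-negative mesenchyme (log2 fold change -2.24, SE 0.39, adjusted p = 0.00478). *hpdb* (-1.70, SE 0.26, adjusted p = 0.00208), *fah* (-1.37, SE 0.29, adjusted p = 0.0179) and *hgd* (-1.28, SE 0.25, adjusted p = 0.00945) fell with it, lower in 4 of 4 libraries each.

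The other lists were mixed. In the osteogenic list 2 of the 3 genes tested rose, *hyal4* and *six2a*, a homeobox gene of osteoprogenitors (1.20, SE 0.26, adjusted p = 0.0196), and *dlx5a* did not pass (0.40, SE 0.37, adjusted p = 0.809). In the meningeal list *crhbp* rose, *ptgdsb.2*, a prostaglandin D synthase gene, fell (-1.25, SE 0.25, adjusted p = 0.0103), and 10 of the 12 genes tested did not pass, among them *aldh1a2*, the retinoic acid synthesis gene (-0.12, SE 0.36, adjusted p = 0.959). None of 5 mid-suture and none of 3 periosteal genes passed, with medians of 0.25 and 0.29. In each of these lists 1 gene had an unadjusted p under 0.05, and DESeq2 called 0.

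**Figure D3:**
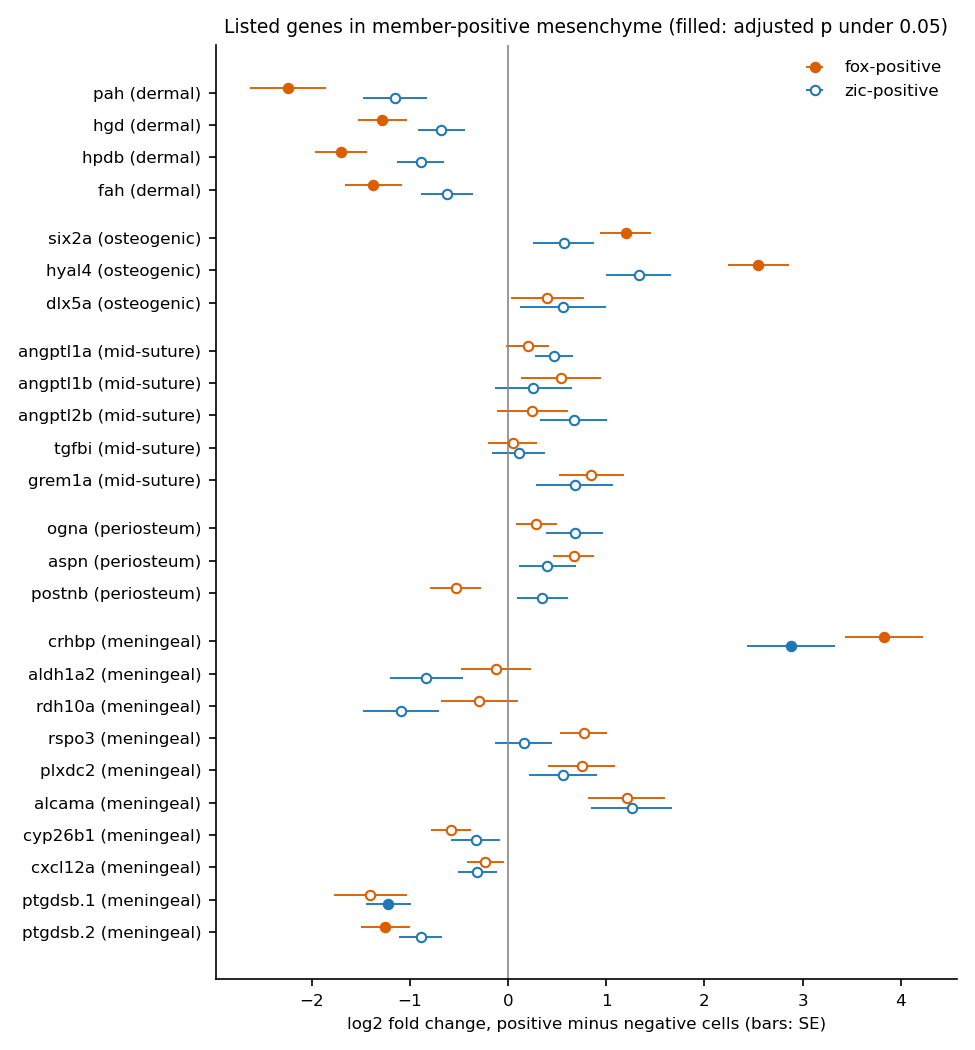
Log2 fold change between positive and negative mesenchyme cells for the listed genes with values in both comparisons, grouped by list, with SE as bars. Orange points compare cells with and without a *fox* UMI, blue points cells with and without a *zic* UMI, and filled points had an adjusted p under 0.05. *crhbp* was higher in both comparisons, which share cells. The 4 dermal genes passed in the *fox* comparison alone, a difference between comparisons that was not tested.

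Of the genes named in the *fox* comparison, *crhbp*, *hyal4*, *gsdf*, *f13a1b*, *gyg1b*, *zgc:56585*, *hpdb* and *ptgdsb.2* passed with each library left out in turn, and *si:dkeyp-66d1.7* in the 3 such fits that tested it. *pah* was lost without adult replicate 2 (adjusted p = 0.0645), *hgd* without adult replicate 1 (0.0526), and *fah* without juvenile replicate 1 (0.0635) or adult replicate 2 (0.0831). *six2a* was lost without adult replicate 1 (0.159) or adult replicate 2 (0.143), *coch* without juvenile replicate 2 (0.0738) or adult replicate 2 (0.0780), and *matn4* without juvenile replicate 1 (0.0661) or adult replicate 2 (0.0728). *june* was lost in 3 of 4 such fits, with adjusted p up to 0.149. The number of called genes was 79 without adult replicate 1, 41 without adult replicate 2 and 5 with *col1a2* and *col5a1* left out of the gate. Library totals in place of TMM raised the median of all genes by 0.12 and the share of calls that were higher from 53.9% to 65.4%.

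Mesenchyme cells with a *zic* UMI numbered 78, 51, 87 and 25, against 445, 362, 569 and 871 without one. Outside *zic1* and *zic2a*, 9 genes passed, 4 higher and 5 lower, and 0.231% of 4766 genes tested passed with those 2 included. *crhbp* was at 423, 142, 559 and 1987 CPM in *zic*-positive and 8.52, 17.7, 187 and 255 CPM in *zic*-negative mesenchyme (log2 fold change 2.88, SE 0.45, adjusted p = 0.0157). In every library the positive cells were the higher ones, although *crhbp* was found in only 6, 5, 13 and 12 of them. Of these cells, 3, 4, 7 and 9 also had a *fox* UMI, so the *fox* and *zic* comparisons share *crhbp* cells. In juvenile replicate 1, of 114 *crhbp* UMIs in mesenchyme, 105 lay in *fox*-positive and 101 in *zic*-positive cells.

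*col1a1a*, a type I collagen gene, also rose (0.77, SE 0.14, adjusted p = 0.0406). The decreases were *col6a4a*, a collagen VI gene (-3.38, SE 0.44, adjusted p = 0.00358), *rgs5a*, a gene also known from mural cells (-2.36, SE 0.42, adjusted p = 0.0367), the midkine gene *mdka* (-2.10, SE 0.36, adjusted p = 0.0367), the keratin gene *krt15* (-1.96, SE 0.30, adjusted p = 0.0157) and *ptgdsb.1* (-1.22, SE 0.23, adjusted p = 0.0469). *rgs5a* was at 272, 613, 42.1 and 13.5 CPM in *zic*-positive and 684, 1676, 366 and 969 CPM in *zic*-negative mesenchyme.

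The *fox* genes did not pass in this comparison. *foxc1b* was at 113, 49.1, 72.1 and 229.8 CPM in *zic*-positive and 45.9, 31.3, 34.5 and 36.5 CPM in *zic*-negative mesenchyme (log2 fold change 1.27, SE 0.28, adjusted p = 0.0758), and *foxc1a* at 25.1, 58.9, 3.0 and 40.5 CPM against 9.83, 14.5, 1.94 and 6.90 CPM (1.65, SE 0.41, adjusted p = 0.121). Both were higher in the positive cells of all 4 libraries, and *foxc1b* turned to -0.32 after thinning. DESeq2 called *foxc1b* (adjusted p = 0.0396) and not *foxc1a*. The 4 dermal genes had values of -0.62 to -1.15 and none passed, although all 4 had an unadjusted p under 0.05. In the osteogenic, mid-suture and periosteal lists none of 3, 5 and 3 genes passed, with medians of 0.57, 0.47 and 0.40 against -0.06 for all genes, and 1 gene of each list had an unadjusted p under 0.05. DESeq2 called 0 in these 4 lists. In the meningeal list *crhbp* rose, *ptgdsb.1* fell and 10 of the 12 genes tested did not pass, with a median of -0.32.

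Among the *zic* calls, *col6a4a* passed with each library left out. *crhbp* was lost without adult replicate 2 (adjusted p = 0.0618), *mdka* and *krt15* without juvenile replicate 1 (0.0639 and 0.242), and *col1a1a* without juvenile replicate 1 (0.383) or juvenile replicate 2 (0.243). *rgs5a* was lost without juvenile replicate 1 (0.112) or adult replicate 1 (0.05), and *ptgdsb.1* without juvenile replicate 1 (0.0615) or adult replicate 2 (0.106). The number of called genes was 5 without juvenile replicate 1, 31 without juvenile replicate 2 and 22 without adult replicate 1. With library totals the median of all genes rose by 0.11, and 26 genes were called, of which 76.9% were higher, against 54.5% with TMM.

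*tbx18* was found in 8, 12, 2 and 5 mesenchyme cells, too few for a comparison of sums in more than 1 library, since a sum needed at least 10 cells. Its level in mesenchyme cells with no UMI of a dermal gene was 49.5, 41.5, 3.20 and 3.16 CPM, from 13, 12, 1 and 3 UMIs. In mesenchyme cells with a dermal UMI it was 1.33, 2.59, 0.481 and 1.26 CPM, from 2, 3, 1 and 2 UMIs. The values were far apart in the 2 juvenile libraries and rested on single UMIs in the adult ones. Of all 249 *tbx18* UMIs, 14.9% lay in mesenchyme, 2.41% in vascular cells and 68.3% in cells without a class, whose median depth of 1415, 1398, 2286 and 1532 UMIs was below that of the gated cells.

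*tbx18* was therefore compared in a wider set of mesenchyme, osteoblast, chondrocyte, vascular and ungated cells, a choice made after its low number in mesenchyme was seen. In this set 60, 64 and 32 *tbx18*-positive cells of juvenile replicates 1 and 2 and adult replicate 2 were compared with 4654, 3447 and 2869 negative cells, and adult replicate 1, with 8 positive cells, was left out. The negative cells include many that are not mesenchyme, so that in this set a difference in the kind of cell and a difference within a kind cannot be told apart. Outside *tbx18*, 219 genes passed, 38 higher and 181 lower, and 1.88% of 11721 genes tested passed with *tbx18* included. With library totals in place of TMM the median of all genes moved by 0.56, from -0.48 to 0.08, and 61.5% of the called genes were higher against 17.7%.

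*zic2a* was at 149, 189.6 and 53.5 CPM in *tbx18*-positive and 27.0, 33.4 and 6.95 CPM in *tbx18*-negative cells of the wider set (log2 fold change 2.01, SE 0.50, adjusted p = 0.00548), higher in 3 of 3 libraries. *crhbp* was at 466, 588 and 1083 CPM against 25.9, 29.7 and 208 CPM (2.99, SE 0.49, adjusted p = 4.32e-07), again higher in 3 of 3 libraries. *foxc1a* (1.05, SE 0.53, adjusted p = 0.470), *foxc1b* (0.51, SE 0.48, adjusted p = 0.820) and *zic1* (1.07, SE 0.58, adjusted p = 0.511) were higher in 3 of 3 libraries without passing, and *foxc1a* passed with library totals (1.57, adjusted p = 0.0157). *aldh1a2* rose (1.74, SE 0.48, adjusted p = 0.0211), as did *hyal4* (2.84, SE 0.49, adjusted p = 2.38e-06). The meningeal list had 2 genes up, 1 down (*ptgdsb.1*, -1.65, SE 0.42, adjusted p = 0.00754, lower in 2 of 3 libraries) and 11 not passing, and in the list of other *zic*, *fox* and *tbx* genes *foxq1a* fell (-3.42, SE 0.98, adjusted p = 0.0308, lower in 2 of 3 libraries).

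The leading increases of the wider set were *si:ch211-62a1.3* (log2 fold change 5.45, SE 0.66), *col9a1b*, a collagen IX gene (5.11, SE 0.61), *coch* (4.51, SE 0.54), *si:dkey-23a13.5* (3.58, SE 0.98) and *ndufa4l2a*, a pericyte gene that is among the 9 mural markers (3.30, SE 0.66). In the positive cells *si:dkey-23a13.5* had 1, 5 and 1 UMIs and *ndufa4l2a* 9, 7 and 1. Their direction in adult replicate 2 therefore rests on single UMIs. Values of the other mural markers are not given for this comparison. *coch* was at 5572, 4164 and 441 CPM in *tbx18*-positive and 49.1, 95.5 and 74.7 CPM in *tbx18*-negative cells. The 5 leading decreases, *bglapl*, *si:dkey-21e2.8*, *XLOC_005449*, *BX248082.1* and *si:ch211-195b11.3*, had no UMI in the positive cells of any of the 3 libraries. *bglapl*, an osteocalcin-like gene of late osteoblasts, was at 519.8, 4.73 and 698 CPM in the negative cells. It is a marker of the osteoblast gate, and osteoblasts, which had no *tbx18* UMI, were all among the negative cells. A single UMI would equal 6.32 CPM in the positive cells of juvenile replicate 2 and 13.4 CPM in those of adult replicate 2. A 0 therefore says little where the negative level was lower, as for *bglapl* in the former and *si:dkey-21e2.8* (9.95 CPM) in the latter. Of the dermal genes 3 of 4 fell, beside 1.54% of all genes, *pah* (-4.63, SE 0.81, adjusted p = 4e-06), *hpdb* (-3.95, SE 0.53, adjusted p = 9.92e-11) and *hgd* (-2.20, SE 0.49, adjusted p = 0.00112), and *fah* did not pass (-2.49, SE 0.75, adjusted p = 0.0507).

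With 1 library left out, *col9a1b*, *hpdb* and *si:ch211-62a1.3* passed in 3 of 3 fits. *zic2a*, *crhbp*, *aldh1a2*, *hgd*, *ptgdsb.1* and *foxq1a* passed only in the fit without adult replicate 2, with adjusted p of 0.922, 0.253, 1, 0.147, 1 and 0.221 without juvenile replicate 1 and of 0.408, 0.0760, 0.598, 0.434, 0.776 and 1 without juvenile replicate 2. *hyal4*, *coch*, *pah* and *ndufa4l2a* were lost without juvenile replicate 1 (0.176, 0.0655, 0.0546 and 0.608), and *si:dkey-23a13.5* without juvenile replicate 1 (0.404) or adult replicate 2 (0.151) and was not tested without juvenile replicate 2. Of the 5 leading decreases, *XLOC_005449* was lost without juvenile replicate 1 (0.235) and *si:ch211-195b11.3* without juvenile replicate 2 (1). The number of called genes was 39 without juvenile replicate 1, 59 without juvenile replicate 2 and 613 without adult replicate 2.

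Within mesenchyme itself, *tbx18* could be compared once the gate took cells with 2 markers, in the 2 juvenile libraries alone, with 11 and 18 positive against 598 and 472 negative cells. Outside *tbx18*, 286 genes passed, 34 higher and 252 lower, and 5.30% of 5413 genes tested passed with *tbx18* included. The median log2 fold change of all genes was -0.43. *crhbp* was at 1782 and 1224 CPM in the positive cells, from 52 and 51 UMIs, and at 37.0 and 30.7 CPM in the negative cells (log2 fold change 4.73, SE 0.38, adjusted p = 2.54e-31, edgeR quasi-likelihood test). In the gate of 3 markers, 3 of 8 and 3 of 12 *tbx18*-positive cells of these libraries had a *crhbp* UMI. *coch* was at 2776 and 3312 CPM against 73.9 and 152 CPM (4.1, SE 0.29, adjusted p = 1.02e-42). With only 2 libraries the spread between pools was barely measured, so the small adjusted p-values of this comparison cannot stand for it. *aldh1a2* (2.09, SE 0.58, adjusted p = 0.00724) and *hyal4* (1.85, SE 0.55, adjusted p = 0.018) rose, and 4 of 4 dermal genes fell, beside 4.66% of all genes. In the meningeal list 3 of the 12 genes tested rose, 2 fell and 7 did not pass. The 2 decreases were *ptgdsb.1* (-4.13, SE 0.25, adjusted p = 4.38e-55) and *ptgdsb.2* (-2.38, SE 0.25, adjusted p = 3.41e-18). None of the 4 members tested passed, while *foxc1a* and *zic2a* had an unadjusted p under 0.05. *zic2a* was at 171 and 168 CPM against 27.5 and 23.3 CPM, from 5 and 7 UMIs in the positive cells (2.03, SE 0.75, adjusted p = 0.11), and did not pass here, whereas it passed in the wider set. DESeq2 was not run on these sums.

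The same relation was read from the side of *crhbp*, in a division chosen after the values above were seen. In the wider set 71, 86, 135 and 241 cells had a *crhbp* UMI. *foxc1b* was at 134, 86.2, 118 and 100.04 CPM in them and 54.1, 83.2, 23.4 and 23.6 CPM in the other cells, and *zic2a* at 83.4, 115, 37.2 and 35.6 CPM against 27.3, 34.1, 16.4 and 4.99 CPM. *tbx18* was at 33.4, 95.8, 0 and 30.5 CPM against 6.37, 7.08, 2.92 and 2.64 CPM. *foxc1a*, *foxc1b*, *zic1* and *zic2a* were higher with *crhbp* in 4 of 4 libraries and *tbx18* in 3 of 4, although *foxc1b* differed by little in juvenile replicate 2. These values come from the same cells as the comparisons above and are given without a test.

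**Figure D4:**
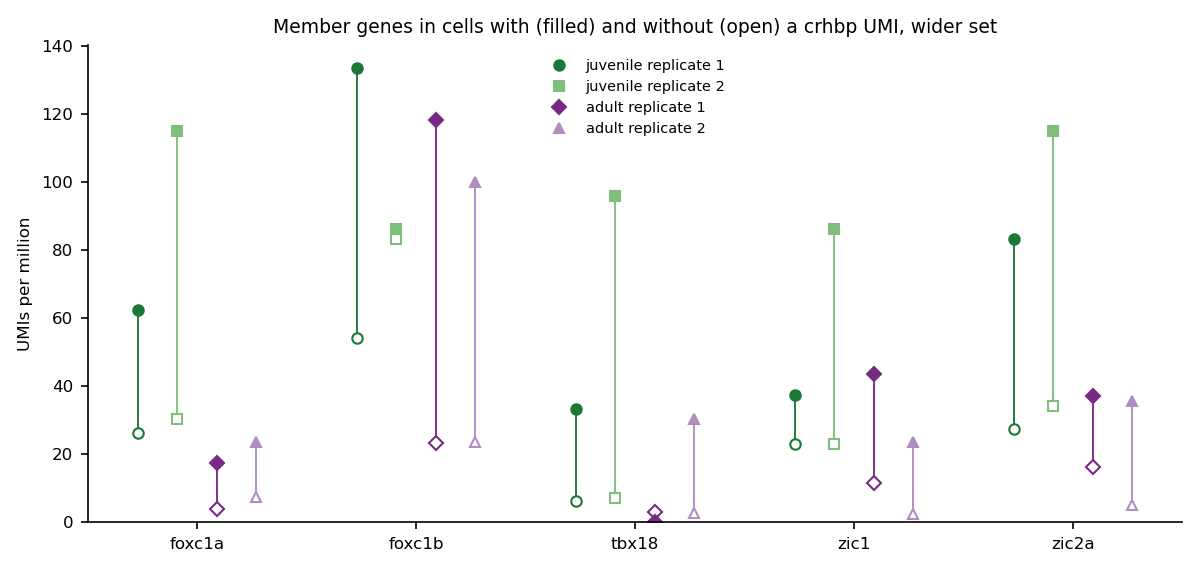
Level of the 5 factors in CPM (linear axis) in cells of the wider set with a *crhbp* UMI (filled symbols) and without one (open symbols), joined by a line for each library. Filled symbols lie above open ones except for *tbx18* in adult replicate 1, where the cells with *crhbp* had no *tbx18* UMI.

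The genes whose pattern over classes was most like that of each factor were sought over 34 sums of library and class, by the Pearson correlation of log2(CPM + 1) among 17396 genes. Sums from 1 library share its depth, and genes are not independent replicates, so these values are a description. *foxc1a* was followed most closely by *cthrc1a* (0.73), *rock2b* and *col9a1a* (0.70 each), and *foxc1b* by *afap1* (0.81), *pcolceb* and *col11a1a* (0.77 each). Of these 6, *col9a1a*, *col11a1a* and *pcolceb* are genes of collagens or of collagen processing, and *col9a1a* is a marker of the chondrocyte gate. *zic1* was followed by *tmem198a* (0.91), *pik3r4* and *pebp1* (0.88 each), *zic2a* by *casp8ap2* (0.91), *si:ch211-126j24.1* and *nol9* (0.85 each), and *tbx18* by *quo* (0.86), *sned1* (0.83) and *hmcn1* (0.81), each of which rests on few UMIs. Between the members the values were 0.62 for *foxc1a* and *foxc1b*, 0.56 for *zic1* and *zic2a*, 0.48 and 0.42 for *tbx18* with *foxc1a* and *foxc1b*, and 0.33 and 0.04 for *tbx18* with *zic1* and *zic2a*. The 4 pairs of a *fox* and a *zic* gene were near 0 over these sums, with 0.03 and -0.02 for *foxc1a* and 0.12 and 0.13 for *foxc1b* with *zic1* and *zic2a*.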

How the data were processed

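Single-cell RNA of dissected zebrafish calvaria was measured in 4 libraries of the 10x 3′ v2 kit. The authors deposited UMI counts for every gene in every barcode, not normalized, made with Cell Ranger at default settings on GRCz11. The labels name version 3.0.0, the table headers 3.1.0, and the annotation version was not given in any source used. The labels also name Seurat 4.1.1. No sequences or coordinates are given, as no genome of that build was at hand.

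Barcodes had to hold over 200 but below 2500 detected genes, with a mitochondrial share (6 genes) below 25%, the limits of the methods. This left 16245 juvenile cells of 16467 barcodes and 5066 adult cells of 5178 barcodes. The cell numbers of the methods are the same. Doublets were not removed. Classes came from UMIs of at least 3 markers, with no clustering, and no member is a marker. UMIs were summed per library and class where at least 10 cells were present, and each library counted as 1 replicate. Sums were tested with edgeR 4.0.16 (quasi-likelihood, TMM, filterByExpr; limma 3.58.1, R 4.3.3) at an adjusted p of 0.05 (Benjamini-Hochberg, all tested genes). Comparisons within libraries took the library as a block. The SE is the log2 fold change divided by the root of F. The script was tested on simulated data. DESeq2 1.42.0 was an alternative, as were library totals, no filter, other gates, all barcodes, thinning to 1000 UMIs, and leaving out each library. Python 3.11.15 with pandas 2.3.3, numpy 2.4.6, scipy 1.17.1 and matplotlib 3.10.9 was used for the other steps.

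The genes named are the members, the listed genes, and from each comparison of positive with negative cells the top 5 increases and the top 5 decreases by fold change that passed, had at least 20 UMIs and moved the same way in every library. For likeness the 3 leading genes with at least 50 UMIs are named. Members and lists were chosen with earlier results of these data known. Intervals (95%, exact Poisson for levels, Clopper-Pearson for shares) and the limit of 3 counts cover counting error only. The deepest library held 23504027 UMIs after filtering and the shallowest 6860615. An exact permutation test of 2 libraries against 2 cannot go below p = 0.333 and was not used. A further listed gene is not reported here.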

Additional observations from a re-analysis of the deposited data

Results flagged for a closer look

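Barcodes outside the limits on genes and mitochondrial share, which were used only in the alternative with all barcodes, also carried members. The 71 such barcodes of juvenile replicate 1 held 30 UMIs of *foxc1b*, 5 of *zic1* and 8 of *zic2a*, and the 151 of juvenile replicate 2 held 7 of *foxc1b*, 54 of *zic1* and 73 of *zic2a*, each above the limit that a count of 0 allows.

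In 5 places every juvenile library differed in one direction and every adult library in the other, and none of these differences between stages was tested. They were picked by screening the members over all comparisons of classes and of positive with negative cells. With 2 libraries per stage such a pattern can come from the spread between pools. The share of all genes that show it was not counted. *foxc1a* in mesenchyme minus endothelial cells was -17.5 CPM in juvenile and 4.99 CPM in adult libraries (means of 2), with no *foxc1a* UMI in adult endothelial cells. In mesenchyme minus mural cells *foxc1a* was -111 and 2.16 CPM, and *foxc1b* was -78.0 and 38.1 CPM, with 9 mural cells in juvenile replicate 1. Between mesenchyme cells with and without *tbx18*, *foxc1a* differed by 123 and -5.01 CPM and *zic2a* by 164 and -15.2 CPM, from 8, 12, 2 and 5 cells with *tbx18*.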

How the results depend on the processing

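Over 25 member differences and 282 alternatives, 247 kept their direction and side of the threshold, 19 lost a call, 5 gained one, 9 turned and 2 untested values moved. A difference that did not pass at first keeps its side by not passing again, and only one that passed can lose a call. The 247 therefore do not measure how stable the calls were. The *foxc1b* stage difference in mesenchyme turned to -0.12 with library totals, -0.52 in the *ecad:YFP*-depleted libraries and -0.57 after thinning, and ran from -0.25 to 0.62 with a library left out. *zic1* between stages in neural cells was 0.01 with library totals, *zic2a* against endothelial cells 0.16 without the filter, *zic1* against mural cells -0.38 to 0.82 with a library left out, and *foxc1b* in *zic*-positive cells -0.32 after thinning.

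The number of members that passed against endothelial cells was 1, and 0 with library totals, at least 4 gate markers, no collagens in the gate or thinning, 2 without the filter, and 0 to 2 with a library left out. Against mural cells it was 0, and 0 to 1 with a library left out. Against immune cells it was 3, and 5 without the filter, 1 without collagens in the gate and 1 after thinning. In the *fox* comparison 141 genes were called, and 270 without the filter, 1 without the library block, 81 at 4 gate markers, 5 without collagens, 59 after thinning, 997 in the wider set and 41 to 139 with a library left out. In the *zic* comparison 11 were called, and 26 with library totals, 26 with DESeq2, 112 without the filter, 2 without the block, 7 at 2 gate markers, 0 without collagens, 111 in the wider set and 5 to 31 with a library left out. For *tbx18* in the wider set the 220 became 413, 117, 332 and 2 under the first 4 of these, and 39 to 613 with a library left out. Fewer cells or genes enter under thinning, stricter gates and left-out libraries. With a library left out the number of calls fell in some fits and rose in others. For none of the settings was the cause tested. The co-detection ratio of *fox* and *tbx18* was 6.72 without collagens, where 1, 4, 0 and 1 cells had *tbx18*. That of *zic* and *tbx18* was 7.46 after thinning, where 4, 7, 1 and 0 cells had *tbx18*. The share of mesenchyme cells with any member was 20.7%, or 9.95% after thinning. The wider set, co-detection with a library left out, and cells without neuronal markers were alternatives chosen after seeing the data.

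No paired analysis across stages was possible, as juvenile and adult libraries came from separate pools of fish. The labels hold no replicate numbers. Those used here were given in the order of the samples and only name the libraries. Depth limits *tbx18* most, with 37 UMIs in 2488 mesenchyme cells.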
